A study of Mus musculus with 5 samples.

Results

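The comparison described here sets footprint libraries of brain slices kept for 10 min in homoharringtonine (HHT) against those kept for 5 min, gene by gene and with the length of the coding sequence (CDS) as covariate. It uses 2 of the 5 libraries of a time course, 1 at each time, and leaves out the untreated start. Its members are the 10329 genes of the authors' count table, of which 5468 had at least 100 counts in both libraries together and were compared. The other 4861 genes were too thinly counted to place, and no statement below covers them. Slices 400 µm thick, holding hippocampus and cortex, came from male wild-type C57BL/6N mice of 28 to 35 days, and no transgene or deletion is named for any group. They rested for 3 to 4 h, then received 20 µM HHT in 0.05% DMSO, and 10 slices from 2 to 3 mice were pooled for each library. Lysates were digested with RNases A and T1, and fragments were taken from monosomes and read at 75 bp. No slices with DMSO alone at 5 or 10 min were analysed here, so time on HHT and time after slicing cannot be told apart.

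HHT, an alkaloid first isolated from plum yews, blocks the earliest steps of elongation on ribosomes that have just initiated, while ribosomes already further along go on translating. The mRNA therefore empties from its start codon onward, and its last footprints leave at the stop codon. A ribosome has farther to go on a long CDS than on a short one, which makes CDS length the natural covariate of such a run-off experiment. Footprints that remain on an mRNA after the run-off time may belong to ribosomes that move slowly or stand still, and this use of run-off has been central to work on FMRP, whose loss causes fragile X syndrome.

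The library at 5 min held 2787749 counts and that at 10 min held 2022152, with median counts per gene of 64 and 47. Values below are the authors' deposited signal, which is the count per kilobase of the CDS less 600 nt, divided by 1 factor per library (0.965 at 5 min and 0.828 at 10 min). A ratio of 10 over 5 min cancels the length, so it compares a gene with itself. With 1 library at each time no difference has a replicate check, no p-value is given, and intervals are exact 95% conditional binomial intervals that cover counting error only. On the deposited scale the summed level of 6 mitochondrially encoded mRNAs, which mitochondrial ribosomes translate, had a log2 ratio of -0.04. Their summed TPM was 14187 at 5 min and 14549 at 10 min. Other ways of scaling the libraries move every log2 ratio by the same amount, from 0.24 upward (total counts, TMM or DESeq2 size factors) to 0.29 downward (mRNAs with a CDS of 8000 nt or more set to 1). Whether a gene with a ratio near 1 lies above or below its 5 min level therefore depends on the scaling, whereas differences between genes do not. The slices carried the markers of their tissue: all 18 neuronal markers in the table passed the count minimum, as did 18 of 19 astrocyte markers, 12 of 19 for oligodendrocytes, 10 of 15 for vessels and 4 of 22 for microglia. Of 12 choroid plexus and ependymal markers 3 were in the table, with 111 counts at 5 min and 115 at 10 min.

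Footprint signal was lower at 10 min for most mRNAs. The median ratio over the 5468 genes was 0.825, with quartiles of 0.675 and 0.999, and 5% to 95% of genes lay between 0.519 and 1.26. The signal was lower by at least 1.5-fold for 1298 genes (23.7%), which are called still clearing here, and by at least 2-fold for 206 (3.77%). It was lower by less than 1.5-fold for 2816 (51.5%). It was at or above the 5 min level for 1354 genes (24.8%), those with no further loss, and at least 1.5-fold higher for 42 (0.768%). The line between the first and the middle class cuts a continuous range: Glul and Ndufv1 lay just inside it with ratios of 0.667, and Cdh2 and Smarca5 just outside it with ratios that round to the same value. On the total-count scale 499 genes were lower by 1.5-fold (9.13%) and 2541 showed no loss (46.5%), and all 499 were among the 1298. With mRNAs of 8000 nt or more set to 1, a scale chosen after the data were seen, these numbers were 2659 (48.6%) and 371 (6.78%).

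The size of the second step depended on CDS length in a valley-shaped way. On the deposited scale the medians of the shortest and the longest mRNAs were at or above their 5 min level, and mRNAs of intermediate length lost the most. For a CDS under 1000 nt the median ratio was 1.02 over 452 genes, and it was 0.916 from 1000 to 1500 nt (1194 genes). It dropped to 0.749 from 1500 to 2000 nt (993 genes), 0.657 from 2000 to 2500 nt (809 genes) and 0.666 from 2500 to 3000 nt (598 genes). The ratio was nearer 1 again for longer mRNAs, at 0.784 from 3000 to 4000 nt (688 genes) and 0.95 from 4000 to 5000 nt (282 genes). It passed 1 beyond that, with 1.06 from 5000 to 6000 nt (171 genes), 1.14 from 6000 to 8000 nt (165 genes) and 1.22 at 8000 nt or more (116 genes). A lowess curve of the log2 ratio on log2 CDS length was lowest at 2383 nt, where it stood at a ratio of 0.658, and crossed 1 near 924 and 5069 nt. These crossing points move with the scaling of the libraries, but the position of the lowest point does not.

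**Figure D1:**
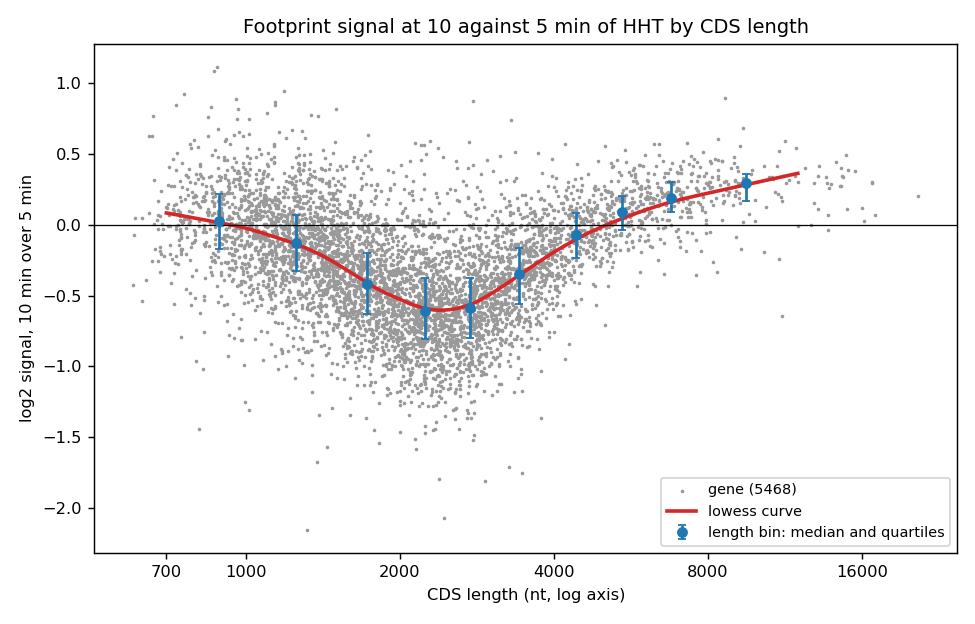
Each grey point is 1 of the 5468 genes, placed by CDS length (nt, log axis) and by the log2 of the deposited signal at 10 min over that at 5 min. The red line is the lowess curve and blue points are medians of the length bins at their median length, with quartiles as bars. The curve is lowest at 2383 nt and lies above 0 at both ends.

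Summed counts showed the same valley. Over mRNAs of 2000 to 2500 nt they came to 374164 at 5 min and 209194 at 10 min, a pooled ratio of 0.652. Those of 8000 nt or more had 141310 and 147244 counts, a pooled ratio of 1.21, and formed the only length bin with more raw counts at 10 than at 5 min. Of the genes from 2000 to 2500 nt, 52.8% were still clearing and 5.93% showed no further loss. At 8000 nt or more these shares were 0.862% and 90.5%. Under 1000 nt they were 3.76% and 54.6%. The 1298 genes still clearing had a median CDS of 2258 nt, with quartiles of 1866 and 2702 nt.

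**Figure D2:**
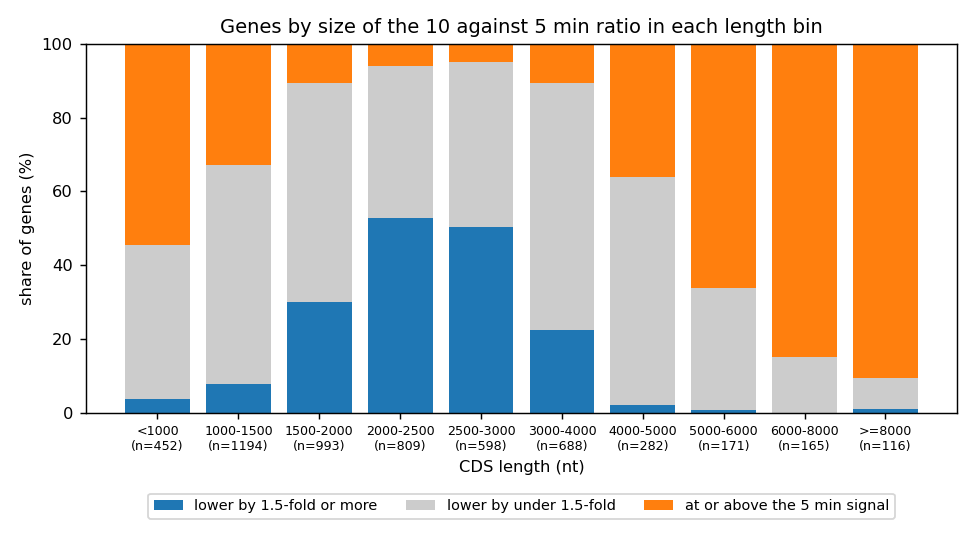
Stacked bars give, for each CDS length bin (nt; n genes under each bar), the share of genes (%) lower at 10 min by 1.5-fold or more (blue), lower by less (grey) and at or above the 5 min signal (orange). The blue share is 52.8% at 2000 to 2500 nt and the orange share is 90.5% at 8000 nt or more.

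The most counted mRNAs of each length mostly followed the valley, and their counting error is small. Those farthest from the curve were Rtn1, Hsp90aa1 and Rtn3, at -0.65, -0.54 and -0.49 on the log2 scale. Rtn1 (627 nt) and Rtn3 (714 nt), reticulons of the endoplasmic reticulum, had ratios of 0.689 and 0.751, although by the TPM table the log2 ratio of Rtn3 was 0.096. Both had an implied length of 1019 nt (explained further on), so their distance from the curve depends in part on which length is taken. Among the next longest, Camk2a (CDS 1437 nt), the kinase subunit of the postsynaptic density, had a signal of 7768 at 5 min and 7365 at 10 min, a ratio of 0.948 with a log2 interval of -0.13 to -0.02. Actb (1128 nt), cytoplasmic β-actin, had 8224 and 8211, a ratio of 0.998. Eef1a1 (1389 nt), the elongation factor that brings aminoacyl-tRNA to the ribosome, had 3741 and 4289, a ratio of 1.15. The most counted of their length, the prohormone protease gene Cpe (1431 nt) at 0.826 and Map2 (1404 nt) at 0.801, lay lower than these 3; by the TPM table the log2 ratio of Map2 was 0.19. In the valley, App (2088 nt), the amyloid precursor, had 11790 and 8103, a ratio of 0.687. Hsp90aa1 (2202 nt), the inducible cytosolic HSP90, had 7855 and 3608, a ratio of 0.459 and the lowest among the most counted genes of each length. Hspa5 (1968 nt), the main HSP70 chaperone of the endoplasmic reticulum, had 3255 and 1908, a ratio of 0.586, while Hspa8 (1941 nt), its cytosolic relative, was at 0.8.

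Further along, Clstn1 (2910 nt), a calsyntenin of the postsynaptic membrane, and Atp2a2 (2997 nt), a calcium pump of the endoplasmic reticulum, had ratios of 0.685 and 0.739. Disp2 (4038 nt) stood at 0.987, Cltc (5028 nt), the clathrin heavy chain, at 0.961, and Kif1a (5094 nt), a motor of synaptic vesicle precursors, at 1.08. These 3 mRNAs thus sat close to 1. For Cltc the implied length was 2478 nt, at which its ratio lay 0.54 above the curve on the log2 scale, so its place here rests on the listed length. Map1b (7395 nt), a microtubule-associated protein and a classic FMRP target, had 3766 and 4210, a ratio of 1.12 with a log2 interval of 0.14 to 0.19. Its relative Map1a (9045 nt) had 2981 and 3440, a ratio of 1.15, and the endocytic receptor Lrp1 (13638 nt) had 767.4 and 969.9, a ratio of 1.26. The heavy chain of cytoplasmic dynein, Dync1h1 (13935 nt), had 331.2 and 403.7, a ratio of 1.22. The 6 long mRNAs fixed for naming, Map1b, Setd2, Sptbn1, Dync1h1, Macf1 and Mdn1, had ratios from 1.04 (Sptbn1) to 1.24 (Setd2), all above 1 on the deposited scale. On the scale with mRNAs of 8000 nt or more set to 1, Map1b, Sptbn1 and Macf1 lie below 1, Dync1h1 and Mdn1 are within rounding of 1, and Setd2 stays above it.

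Levels at 30 and 60 min, set beside those at 5 and 10 min, show where this step lies in the course. Ratios of 30 over 10 and of 10 over 5 min share the 10 min library, so an error of that library enters both in opposite directions. The median signal of mRNAs of 5000 nt or more was 80 at 5 min and 88.7 at 10 min, then 33.6 at 30 min and 25.5 at 60 min. That of mRNAs from 2000 to 3000 nt was 124, 83.9, 64.3 and 51.9 at the same times, with its widest gap in the step described here. That of mRNAs under 1000 nt was 462, 475, 466 and 394. Map1b carried 1414 at 30 min against 4210 at 10 min, whereas Camk2a carried 7269 against 7365.

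**Figure D3:**
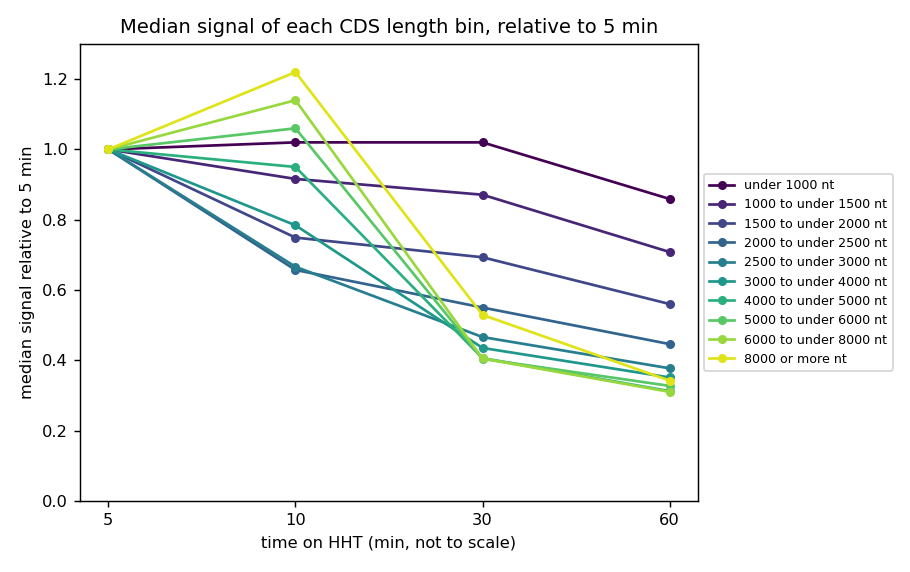
Lines give, for each CDS length bin, the median over genes of the signal relative to that at 5 min (vertical axis, no unit) at 5, 10, 30 and 60 min on HHT (horizontal axis, not to scale), with 1 library at each time. At 10 min the bins spread from 0.657 to 1.22, and at 30 min the bin of 8000 nt or more stands at 0.529.

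Among the 1354 genes with no further loss, the length bins separate mRNAs with different later levels. There were 639 with a CDS under 1500 nt, whose median signal was 262 at 5 min, 306 at 10 min and 284 at 30 min. There were 358 of 5000 nt or more, with medians of 86.4, 99.7 and 37.1. The remaining 357 lay between, with 84.2, 93.6 and 63.5. Since these genes were chosen on the ratio of 10 over 5 min, their 10 min level is high by choice and the 30 min level is a description only. Genes at least 1.5-fold higher were mostly short and thinly counted. Their median CDS was 1016 nt, and the 42 of them held 3687 counts at 5 min in all. Of the 42, 20 were among the 452 genes with a CDS under 1000 nt and 4 among the 116 of 8000 nt or more. Akap9 (11340 nt), with 635 and 821 counts, was 1 of the 4.

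Csf1r, Pdgfra and Srsf5 had the lowest ratios among the 2324 genes with at least 400 counts. Csf1r (CDS 2934 nt), the receptor for colony stimulating factor 1 on which microglia depend, had a signal of 218 at 5 min and 62.1 at 10 min. It was 3.51-fold lower, a log2 ratio of -1.81 (-2.11 to -1.52) from 491 and 120 counts. Pdgfra (3270 nt; GRCm38.p6, chromosome 5, 75151322 to 75198206), a growth factor receptor of oligodendrocyte progenitors, had 240.2 and 73.3. It was 3.28-fold lower, a log2 ratio of -1.71 (-1.97 to -1.46) from 619 and 162 counts. Srsf5 (810 nt; chromosome 12, 80945495 to 80950507), a serine and arginine rich splicing factor, had 1732 and 638.3 and was 2.71-fold lower. Its log2 ratio was -1.44 (-1.76 to -1.13) from 351 and 111 counts. The intervals of these 3 genes all end below a log2 ratio of -1, but the genes were picked for their low ratios. The libraries come from separate pools of slices, so fewer cells of a type and fewer footprints per cell cannot be told apart.

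The next 7 were closer together, with ratios of 0.394 to 0.42. Lmna, which encodes the A-type lamins of the nuclear envelope, had 636.9 at 5 min and 251 at 10 min. Psip1, a chromatin-bound coactivator, had 2174 and 911.8, and Epm2aip1, a partner of laforin, had 603.3 and 252.2. Zfp574, a zinc finger gene, had 186.2 and 75.2, and Cdk11b, a kinase linked to transcription and splicing, had 175.9 and 72.9. Dnttip2 had 184.1 and 75.6, and Gba2, a glucosylceramidase outside the lysosome, had 205.1 and 86.2. The listed CDS of these 7 ranged from 996 nt (Psip1) to 2757 nt (Gba2), so by listed length they include mRNAs well short of the valley. For Psip1 and Lmna the distance from the curve was smaller with the implied length, as given further on.

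The 10 highest ratios with at least 400 counts came from 3 mRNAs with a CDS under 1500 nt and 7 with a CDS above 5000 nt. Naca (648 nt; chromosome 10, 128035346 to 128048637), a subunit of the complex that binds nascent chains at the ribosome, had a signal of 7036 at 5 min and 10870 at 10 min. Its log2 ratio was 0.63 (0.42 to 0.84) from 326 and 432 counts. Ube2ql1 (915 nt), a ubiquitin-conjugating enzyme, had 766.3 and 1165, and Hnrnpdl (1263 nt), an RNA-binding protein, had 1122 and 1628. Akap9 (11340 nt; chromosome 5, 3927736 to 4080204), an anchor of protein kinase A at the centrosome and Golgi, had 61.3 and 92.3, a log2 ratio of 0.59 (0.44 to 0.74). Tpr, a filament of the nuclear pore basket, had 140.5 and 209.2, and Gcc2, a golgin, had 85.8 and 126.1. Numa1, which organises spindle poles, had 108.6 and 161, and Ylpm1 had 163.6 and 242.8. The histone methyltransferase gene Kmt2a had 37.5 and 54.4. Srrm2 (7824 nt; chromosome 17, 23790527 to 23824741), a scaffold of splicing speckles, carried by far the most counts of these, 6573 and 8040. Its signal of 942.7 and 1344 gave a log2 ratio of 0.51 (0.46 to 0.56). All 10 intervals excluded 0 on the deposited scale, and the 10 log2 ratios kept their sign under each scaling tried. These genes were picked for their high ratios, so neither result is a check on them, and the intervals cover counting error only.

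**Figure D4:**
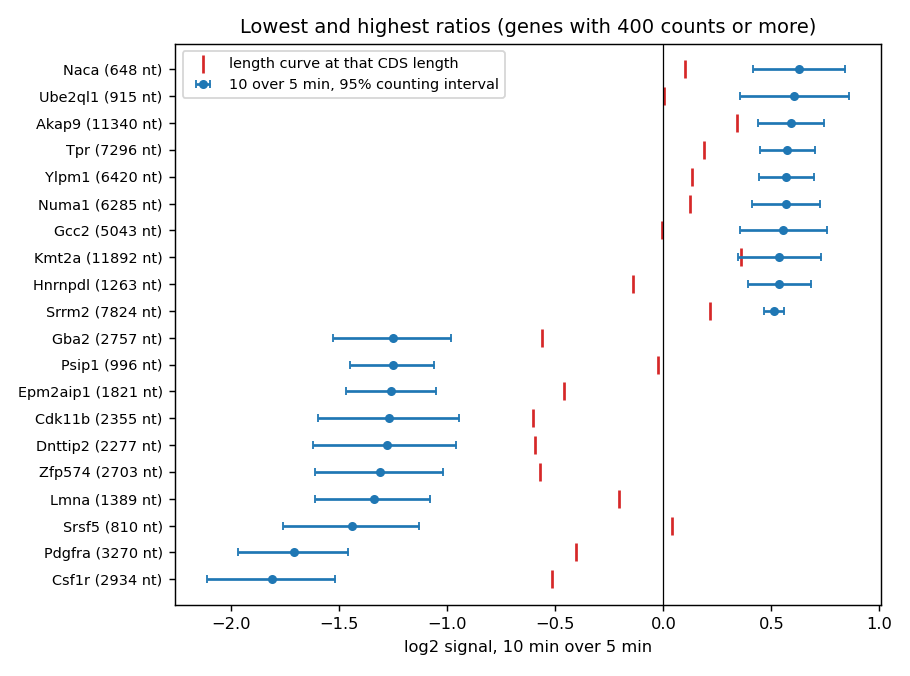
Blue points give the log2 signal at 10 min over 5 min of the 10 lowest and 10 highest genes with at least 400 counts, with exact 95% counting intervals as bars; the CDS length stands beside each name. Red ticks mark the length curve at that CDS. Csf1r, Pdgfra and Srsf5 lie farthest to the left, and every gene shown is on the outer side of its red tick.

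The curve gives each gene a value for its own length, so the difference from it shows which mRNAs stood apart from others as long. By that measure 174 genes (3.18%) lay at least 1.5-fold below the curve and 174 (3.18%) at least 1.5-fold above it. The SD of the difference was 0.316 on the log2 scale over all genes, against 0.399 for the ratio itself. It shrank with depth, from 0.35 for genes under 400 counts to 0.191 for the 193 genes of 4000 counts or more, where counting error alone would give 0.0371. Counting thus made up 40.3% of the variance in the first group and 3.76% in the second, and how much of the rest is particular to these libraries was not tested. Genes with 1 curated RefSeq transcript and genes with more gave similar shares, 3.54% and 2.85% below and 3.19% and 3.16% above.

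Of genes with at least 400 counts, those farthest below the curve were led by Srsf5, 2.79-fold under it, Pdgfra (2.47-fold) and Csf1r (2.46-fold), followed by Psip1 (2.35-fold) and Lmna (2.2-fold). Sec62 (1197 nt), a part of the channel that takes proteins into the endoplasmic reticulum, had a signal of 612.6 at 5 min and 307.5 at 10 min and lay 1.84-fold below. Arpp21 (747 nt), a neuronal phosphoprotein, had 3834 and 2218 and lay 1.81-fold below. Wipf3 (1350 nt), an actin regulator, had 1140 and 573.2 and lay 1.75-fold below. These mRNAs differed in length and function, and 4 of the 8 were listed at under 1350 nt. Among those 4, Arpp21 had an implied length of 2451 nt.

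Those farthest above the curve all had a listed CDS in or beside the valley, where most others lost signal and they did not on the deposited scale. They were picked for their distance from the curve, so this is a description only. Speg (2586 nt), a kinase of the myosin light chain family, had 413.2 at 5 min and 544.8 at 10 min and lay 1.99-fold above. Pgr (2781 nt), the progesterone receptor, had 112.6 and 150.6 and lay 1.97-fold above. Bcas1 (1902 nt), a marker of newly myelinating oligodendrocytes, had 932.6 and 1220 and lay 1.84-fold above, from 1172 and 1315 counts. Jph3 (2235 nt), a junctophilin that ties the endoplasmic reticulum to the plasma membrane, had 224.3 and 267.4 and lay 1.79-fold above. Soga3 (1.75-fold), the transcription factor Foxp1 (1.74-fold), the netrin receptor Unc5d (1.71-fold) and Ralgds, an exchange factor for Ral (1.69-fold), completed the 8. Among them Jph3 and Foxp1 still had signals of 294.2 and 207.7 at 30 min, above their 5 min level, while Unc5d was at 58.4.

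The length in the table is that of 1 listed transcript, and it is not always the length behind the TPM values of the same gene. Of 4749 genes with a TPM of at least 20, the length implied by count and TPM was over 1.25 times the listed one for 104 and under 0.8 times for 373. Speg was listed at 2586 nt with an implied 4585 nt, and its log2 difference from the curve was 0.99 with the first and 0.47 with the second. Arpp21 went from -0.85 at 747 nt to -0.19 at an implied 2451 nt, Lmna from -1.14 to -0.80 and Psip1 from -1.23 to -0.90. Map2, the dendritic microtubule protein, was listed at 1404 nt with an implied 5554 nt, and its ratio of 0.801 lay 0.11 below the first curve and 0.38 below the other on the log2 scale. For Csf1r, Pdgfra, Srsf5, Jph3, Pgr, Soga3 and Foxp1 both lengths gave nearly the same difference. In all, 137 of the 155 such genes below the listed-length curve, and 98 of the 121 above it, were also past 1.5-fold by the implied length.

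Gene groups are described by the median difference of their members from the curve, beside a median over all genes of 0.00014. Members named here other than the lowest and highest of each list and the genes already named were picked as examples after their values were seen. Glial groups lay below it. The 12 oligodendrocyte markers had a median of -0.41 on the log2 scale, 9 were below and 3 above, and 6 of the 12 were still clearing, against 23.7% of all genes. The myelin genes Mag and Cnp, coding for a sialic acid binding adhesion protein and a phosphodiesterase of myelin, had signals of 2246 and 1085 and of 1514 and 823.3. Bcas1 and Olig1, a transcription factor of the lineage, lay above. The group therefore held some of the genes farthest below, such as Pdgfra, as well as Bcas1 far above, and summed to 9092 and 5711 counts.

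Microglial markers were thinly counted, and 4 of 22 in the table were compared. Csf1r and Itgam, an integrin of myeloid cells, had ratios of 0.285 and 0.297, and lay 2.46- and 2.65-fold below the curve. Ctsd, a lysosomal protease found in many cells, lay 0.21 above on the log2 scale. Over all 22 markers in the table the counts were 1770 and 952, a pooled ratio of 0.627 (0.579 to 0.679). Over all genes they were 2787749 and 2022152. Of the 22 markers 17 were lower at 10 min, and without a count minimum 31.7% of all 10329 genes showed no loss. Csf1r held 491 and 120 of the marker counts and Itgam 145 and 37, so the pooled ratio leans on both. A pooled ratio without them was not computed. The 18 astrocyte markers had a median difference of -0.125 with 10 below and 8 above. Among them Glul, glutamine synthetase, had 4237 and 2825 and lay 0.51 below, and Ntsr2, a neurotensin receptor, lay 0.48 above. Markers of vessels went the other way: their 10 measured members had a median of 0.33, and 9 lay above the curve. On the deposited scale 8 showed no further loss, against 24.8% of all genes and 79.2% of those with a CDS of 5000 nt or more, such as Vwf and Notch3. Most were thinly counted, among them Slco1a4 with 48 and 55 counts and Notch3 with 73 and 75. Of the 8 only Bsg, with 1133 and 1186 counts, had an interval that excluded 0. Cdh5, the cadherin of endothelial junctions, held 172 counts in each library although its CDS of 2355 nt lies at the bottom of the valley. The 18 neuronal markers had a median of 0.16, 12 above and 6 below, with Nefl highest (0.56) and Gad2 lowest (-0.46).

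Genes that make, fold and degrade proteins did not move as one. The 13 ribosomal proteins compared, of 16 in the table, had a median difference of 0.16, 11 lay above the curve, and 12 showed no further loss, against 24.8% of all genes and 54.6% of those with a CDS under 1000 nt. Rps2 had a log2 ratio of 0.40 and Rps4x, at -0.04, was the only one under 0. The 32 translation factors had a median of 0.072, with 21 above and 11 below. The spread was wide. Eif2s1 (-0.79), a subunit of the factor that carries the initiator tRNA, was lowest on 77 and 38 counts. Pabpc1 (0.75), the poly(A)-binding protein, was highest on 278 and 285. Eef2, the translocase of elongation, lay 0.17 above with a ratio of 0.747.

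Cytosolic chaperones were lower than their length: 18 of 22 lay below the curve, with a median of -0.14. On the deposited scale 7 of the 22 were still clearing (23.7% of all genes) and none was at or above its 5 min signal (24.8% of all genes). Their median CDS was 1634 nt, and from 1500 to 2000 nt 30% of genes were still clearing and 10.6% showed no further loss. Hsp90aa1 lay farthest below (-0.54), with Hsph1 (-0.32), Dnaja1 (-0.32) and Stip1 (-0.26), a co-chaperone that joins HSP70 to HSP90. Hspa8, the constitutive HSP70, lay 0.18 above, with 9762 and 7808. The 15 chaperones of the endoplasmic reticulum had a median of 0.024, which was below 0 by the TPM table, and Hspa5 was lowest (-0.26). The 29 proteasome genes had a median of 0.010, which was below 0 by the TPM table and with either other count minimum. Within that group the non-ATPase subunits Psmd1 (-0.43), Psmd2 (-0.43) and Psmd3 (-0.54) lay apart from Psma1 (0.55) and Psmd8 (0.44). Psma1 rested on 44 and 57 counts.

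Metabolic groups were near the curve as a whole. The 16 glycolysis genes had a median of -0.056, with Pfkp (-0.57), the mutase Pgam1 (-0.51), the hexokinase Hk1 (-0.41) and Pfkl (-0.355) lowest. Pfkp, the platelet type of phosphofructokinase, had 1564 and 597 counts. Ldha (0.25) and Aldoa (0.24) lay above. The 31 genes of the citric acid cycle and respiratory chain had a median of 0.012, from Ndufv1 (-0.38) to Fh1 (0.43). The 26 ion pumps and cotransporters had a median of 0.034 and a narrow range, from -0.28 (Atp6v0d1) to 0.23 (Atp8a2). On the deposited scale 25 of them were lower at 10 min and 1 showed no further loss, against 24.8% of all genes without loss. Their median CDS was 3020 nt, and from 3000 to 4000 nt 10.6% of genes showed no further loss.

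Groups of the cytoskeleton differed from each other. Of 17 actins, tubulins and neurofilaments, 16 lay above the curve, with a median of 0.17. The neuronal intermediate filament genes were among the highest: Ina (0.66), Nefl (0.56), Nefm (0.55) and Nefh (0.40). Nefm (2547 nt) had a log2 ratio of -0.04 in the deepest part of the valley, and Tubb2b (0.62), with 74 and 86 counts, rested on few reads. The 47 spectrins, motors and giant scaffolds had a median of -0.057, with 31 below and 16 above. Of the 47, 30 showed no further loss, against 24.8% of all genes and 79.2% of those with a CDS of 5000 nt or more. The giant scaffolds Dmd (-0.57), Utrn (-0.50) and Dst (-0.43) were lowest at their listed lengths; at implied lengths of 2996 and 4594 nt, Dmd lay 0.25 above and Utrn 0.12 below. At the listed lengths Ank2 (0.66), Sptbn4 (0.50) and Ank3 (0.42), the ankyrin of the axon initial segment, were highest. Ank2 was listed at 3153 nt with an implied 4674 nt, by which its difference was 0.27, and Sptbn4 went to 0.20.

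Genes of glutamate receptors and postsynaptic scaffolds, of voltage-gated channels and of adhesion molecules lay above the curve more often than below. Of 46 glutamate receptor and postsynaptic scaffold genes, 37 lay above and 9 below, with a median of 0.14. The AMPA receptor subunits Gria1 (0.017) and Gria2 (0.035) were close to their length, Gria4 was lowest at its listed 1302 nt (-0.34) but at 0.065 by an implied 2684 nt, and the scaffolds Dlgap3 (0.47), Dlgap1 (0.41) and Dlg2 (0.41) were higher. Grin2c (0.77) and Grin2d (0.55), NMDA receptor subunits of 3720 and 3972 nt, were highest, with 111 and 177 counts at 5 min. Voltage-gated channels gave 31 above and 9 below of 40, with a median of 0.16. All 8 pore-forming calcium channel subunits measured lay above, Cacna1e with 2717 and 3146 counts at 0.27, and Kcnq5 was highest of all 40 (0.69). Adhesion molecules gave 30 above and 7 below of 37, with a median of 0.098.

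Presynaptic genes split evenly, 20 above and 20 below, with a median of 0.0040 that was below 0 when the curve was drawn on the CDS less 600 nt. Ap2b1 (-0.395), Ap2a1 (-0.32) and Ap2a2 (-0.27), subunits of the AP-2 complex, and Snap91 (-0.37), a clathrin adaptor, had log2 ratios between -0.94 and -0.82. The active zone gene Rims1 (0.63) and the membrane-bending protein Amph (0.54) lay above, and the giant scaffolds Bsn (-0.016) and Pclo (-0.023) were at their length. For Snap91 the TPM table gave a log2 ratio of 0.21 in place of -0.94. The 16 GABA receptor genes split 8 and 8, with a median of 0.0089 that was below 0 with either other count minimum. The subunit Gabbr2 (-0.23) of the metabotropic receptor was lowest.

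Immediate early genes, which neurons switch on with activity, spread widely about a median of -0.074 (16 of 26 below). Fosb had 402.5 and 162.2 and lay 1.28 below on the log2 scale with a CDS of 1017 nt, from 162 and 56 counts. Fos had 1233 and 765 and lay 0.60 below, with Ier5 (-0.78), Csrnp1 (-0.70), Fosl2 (-0.65) and Nfkbia (-0.63). These 6 of the 26 were 1.5-fold or more below, against 3.18% of all genes. Arc, which acts at the postsynaptic density, had 701.2 and 803 and lay 0.31 above, with Nr4a1 (0.48), Jund (0.46), Klf6 (0.45) and Dusp4 (0.42). The list thus held early genes on both sides.

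FMRP target mRNAs and chromatin genes, the groups that the study's title points to, are mostly long. The 76 target mRNAs had a median CDS of 5310 nt, 47 showed no further loss against 24.8% of all genes, and 1 was still clearing. Against mRNAs of their own length the median was 0.042, with 45 above and 31 below, so their high ratios on the deposited scale lay close to what the curve gives for that length. Aak1 had the lowest ratio (log2 -0.64). Pde2a, a phosphodiesterase, stood farthest above the curve of all members of the lists (1.43) from 65 and 102 counts. Fmr1 itself (1770 nt; chromosome X, 68678536 to 68717963) had a signal of 225.8 and 128 and a log2 ratio of -0.82 (-1.14 to -0.50), and lay 0.39 below.

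The 69 chromatin modifiers had a median CDS of 5007 nt and a median difference of 0.045, with 40 above and 29 below. Setd2 (7614 nt; chromosome 9, 110532500 to 110618633), the methyltransferase for lysine 36 of histone H3, had 137.2 and 170.1, a log2 ratio of 0.31 (0.18 to 0.44). That was 0.11 above the curve at the listed length and 0.34 above it at an implied 4854 nt. Atrx (0.29) and Ncor1 (0.24) lay above, and the short members Hdac3 (-0.82) and Brd3 (-0.70) below. Hdac3 had 71 and 31 counts, and Brd3 had 189 and 67.

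RNA-binding proteins of splicing and neuronal mRNA control were lower than their length: 40 of 59 lay below, with a median of -0.097, and 14 were still clearing, about the share of all genes. Besides Srsf5, the well counted Hnrnpu (4034 and 1601 counts, -0.51), Sfpq (-0.49), Hnrnpk (-0.44), Ddx5 (-0.39) and Ddx17 (-0.375) were on this side. Fxr1 (-0.35) and Fxr2 (-0.18), the relatives of Fmr1, were there too. Srrm2 (0.30), Matr3 (0.46) and Celf4 (0.47) lay above. Of 17 genes of the mTOR and PI3K pathway, 13 lay below, with a median of -0.094. Akt2 was lowest (-0.67) on 72 and 33 counts, and the TPM table gave it a log2 ratio of 0.037 in place of -0.90. The 10 granins, peptide precursors and their processing enzymes had a median of -0.030, from Pcsk1 (-0.23) to Scg3 (0.22).

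**Figure D5:**
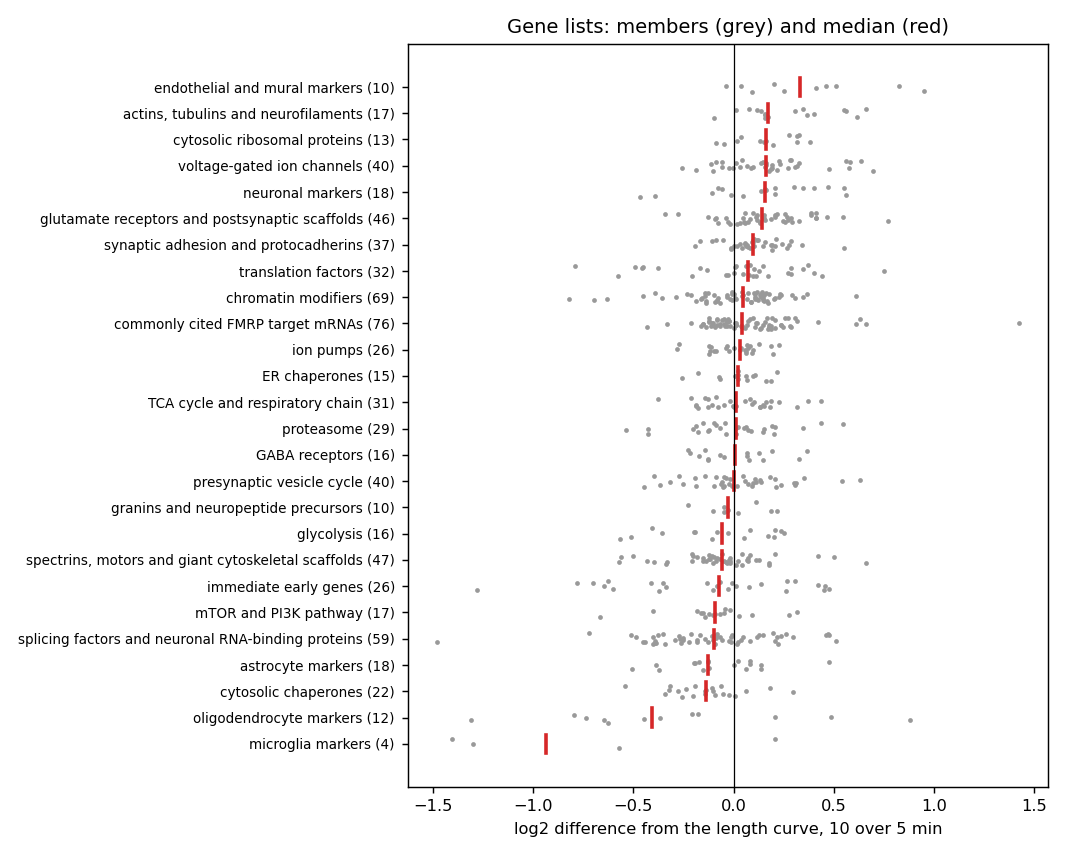
Each row is 1 gene list with its number of compared members; grey points are members and the red bar is their median, placed by the log2 difference of their 10 over 5 min ratio from the length curve. Medians run from -0.94 for 4 microglial markers to 0.33 for 10 vessel markers, and those of most lists lie within 0.2 of 0.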

How the data were processed

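The submitters' processing notes name TopHat2 2.0.9 and Bowtie2 2.1.0, SAMtools 0.0.19, and the trimmers Trimmomatic 0.32 and cutadapt 1.7.1, with the mm10 build. How each was set is not given in those notes. The authors deposited expected counts per gene, whole numbers as listed, and a signal equal to the count per kilobase of the CDS less 600 nt over 1 factor per library, whose origin is not given. The same deposited table holds ratios to 0 min, not used, and the CDS length, for genes with a CDS of 603 nt or more and at least 1 count at 5 min. It also holds a score for the fraction of signal lost, also deposited by the authors and left out of the results. A second table deposited by the authors holds a score, TPM rounded to whole numbers.

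The log2 ratio of signals was computed for genes with at least 100 counts in both libraries, with its counting interval (SciPy 1.17.1), and a lowess curve on log2 CDS length with fraction 0.3 (statsmodels 0.14.6). A gene with 0 counts at 10 min, possible only without the count minimum, was set to 0.5 counts. Depths of 2787749 and 2022152 counts limit single genes and, through the count minimum, which genes enter a bin. Under 1000 nt 452 of 1759 genes were compared, and at 8000 nt or more 116 of 145. Implied lengths came from count and TPM, scaled to the median gene. Scaling alternatives used edgeR 4.0.16 (TMM) and DESeq2 1.42.0 in R 4.3.3; these tools gave no tests here. The steps were tested on simulated data. Genes were named by rule: the 10 lowest and 10 highest ratios and the 8 farthest below and above the curve, each with at least 400 counts, the most counted pair in each length bin, the extremes of each list, and 16 fixed genes (Snap25 was not among the genes compared); other list members were chosen after their values were seen. Members, lists and rules were chosen with earlier results of these data known. Of 10329 transcripts 10293 matched the RefSeq annotation of GRCm38.p6, the assembly behind mm10, from which gene positions come. Some genes are not reported here.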

Additional observations from a re-analysis of the deposited data

How the results depend on the processing

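No paired analysis was possible because each time has 1 library and the labels give no replicate numbers; for the same reason no replicate could be left out. Scaling moved the counts of genes, but it adds the same amount to every log2 ratio and so cannot move the valley. Median log2 ratios, genes lower by 1.5-fold, genes with no further loss and genes higher by 1.5-fold were -0.041, 512, 2522 and 247 with TMM, -0.049, 532, 2484 and 239 with DESeq2 size factors, and -0.036, 499, 2541 and 257 with total counts. With mRNAs of 8000 nt or more set to 1, chosen after seeing the data, they were -0.57, 2659, 371 and 6. Scaling to mitochondrially encoded TPM gave a median of -0.24 and moved no count by over 1.5 times. The TPM table gave -0.19, with 203 genes higher by 1.5-fold, 267 below and 323 above the length curve, and a log2 gap between the bins of 2000 to 2500 nt and of 8000 nt or more of -0.865 in place of -0.897; of the 135 genes named by rule it turned the sign of 13, among them 3 that were lower by 1.5-fold, Akt2 (0.037), Arpp21 (0.079) and Snap91 (0.21), and also Map2 (0.19) and Rtn3 (0.096).

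With no count minimum the median was -0.237, 2636 genes were lower, 3278 showed no loss, 673 were higher, and 1105 and 1028 lay below and above the curve. With at least 400 counts these counts were 533, 583, 3, 34 and 33, of fewer genes tested (2324). At 2-fold, 206 genes were lower and 20 and 18 lay below and above the curve. Among the 2602 genes with 1 curated transcript, also chosen afterwards, the curve left 91 below and 82 above. The bin with the lowest median was 2000 to 2500 nt by the TPM table, with at least 400 counts and among genes with 1 curated transcript. Without a count minimum it was 2500 to 3000 nt. The scalings, the 2-fold cut and the changes to the curve could not move it, because they shift all genes alike or do not enter the bin medians. The medians of the 26 lists stayed within the spread of their members in the 5 settings run on them. That spread is wide, so staying within it says little about how stable a median is. The 4 lists whose sign turned are given with their values above. Counting error made up 40.3% of the variance about the curve for genes under 400 counts, so single genes in that range are the least certain.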

Other observations

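Genes below 400 counts included lower ratios than those named by rule, with wide intervals. Usp27x, a deubiquitinase, went from 93 counts (5 min) to 18 (10 min), with a log2 ratio of -2.15. Tnfaip3, an inhibitor of NF-κB signalling, had 206 and 42, a log2 ratio of -2.07. Itgam had 145 and 37, a log2 ratio of -1.75. The mRNAs named in this paragraph were chosen after their values were seen.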
